A study of Mus musculus with 21 samples.

Results

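The translation initiation and elongation factors are the proteins that bring a ribosome to an mRNA, find the start codon and then move the ribosome along the message. The set was taken by name: every gene of the deposited table whose symbol begins with Eif1 to Eif6 or with Eef1 or Eef2. There were 64 such genes among the 12994 genes of the table, of which 61 are annotated as coding for protein and 3 as processed pseudogenes. They were measured in CD4+ and CD8+ T cells from the spleen of mice kept in an enriched environment (EE) or a standard environment (SE), and are described here by factor complex over these 4 groups.

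In mammals, initiation factors load the small ribosomal subunit with the initiator tRNA (eIF2, recharged by eIF2B), hold it open for scanning (eIF1, eIF1A, eIF3), bring it to the cap of the mRNA and unwind the leader (the eIF4 group), and release the factors at the start codon so that the large subunit can join (eIF5, eIF5B). Elongation then runs on eEF1, which delivers aminoacyl-tRNA, eIF5A, which relieves stalled ribosomes, and eEF2, which moves the ribosome by a codon. Resting T cells make little protein and raise synthesis sharply on activation, and the mRNAs of the elongation factors and of some initiation factors carry the 5′ terminal oligopyrimidine tract that places their translation under mTOR.

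All animals were female C57BL6/J mice, and the labels give no transgene or deletion. EE mice were placed at 4 weeks of age, for 4 weeks, in groups in a large cage that held wheels, tunnels, toys and other objects, whereas SE mice lived in smaller groups in smaller cages without objects. T cells were sorted by antibody as CD45+ CD11b- CD3+ cells positive for CD4 (LT4 in the labels) or for CD8 (LT8), and cDNA tagged with unique molecular identifiers was sequenced on an Ion Proton instrument. There were 6 CD4 EE, 5 CD4 SE, 6 CD8 EE and 4 CD8 SE samples, each from 1 mouse, and 9 mice (6 EE and 3 SE) gave both populations. According to the labels, the animals of an environment shared a cage, so environment and cage cannot be told apart. The sample titles of the environments also end in separate runs of numbers, with CD8 SE replicate 6 outside both runs. Apart from that sample, the order of these numbers cannot be told apart from environment. Replicates are named below by the animal number of the labels.

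The libraries held 145546 to 221454 molecules and 9302 to 10137 detected genes. CD4 markers (Cd4 and Zbtb7b) summed to 55.6 to 103 normalized molecule counts in the CD4+ samples and 0 to 1.86 in the CD8+ samples, and CD8 markers (Cd8a and Cd8b1) to 1.26 to 9.15 and 275 to 337. Of the 10 B cell markers listed, 10 were detected in CD4+ samples and 8 in CD8+ samples (Ms4a1 was at 0), with sums of 217 to 499 in 10 CD4+ libraries, 41.2 in CD4 SE replicate 1, and 35.0 to 115 in CD8+ libraries. The 5 erythroid markers summed to 580 in CD8 EE replicate 6 and 1033 in CD8 SE replicate 3 but to at most 26.7 in the other 19 libraries. Myeloid markers (4 of 8 listed) reached at most 18.9 and the only natural killer cell marker listed, 1 of 3, at most 1.83. Fewer cells of a type and less RNA per cell cannot be told apart in such bulk samples.

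Values are normalized molecule counts, that is, a gene's unique molecules divided by the size factor of its library, and are given as mean ± SD. The 64 factors together made 1.81% of all counts, with sums of 3138 ± 222 in CD4 EE (n = 6), 3036 ± 169 in CD4 SE (n = 5), 3265 ± 134 in CD8 EE (n = 6) and 3177 ± 49.2 in CD8 SE (n = 4). Levels ran over several orders of magnitude. Over the 21 samples, 39 members had a mean count above 10 and 6 of these above 100, 18 lay between 2 and 10, and 7 were at 2 or below. Eef1a1 alone made 28.8% of the member sum, and Eef1a1, Eef1b2, Eef2 and Eif1 together made 49.65%.

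**Figure D1:**
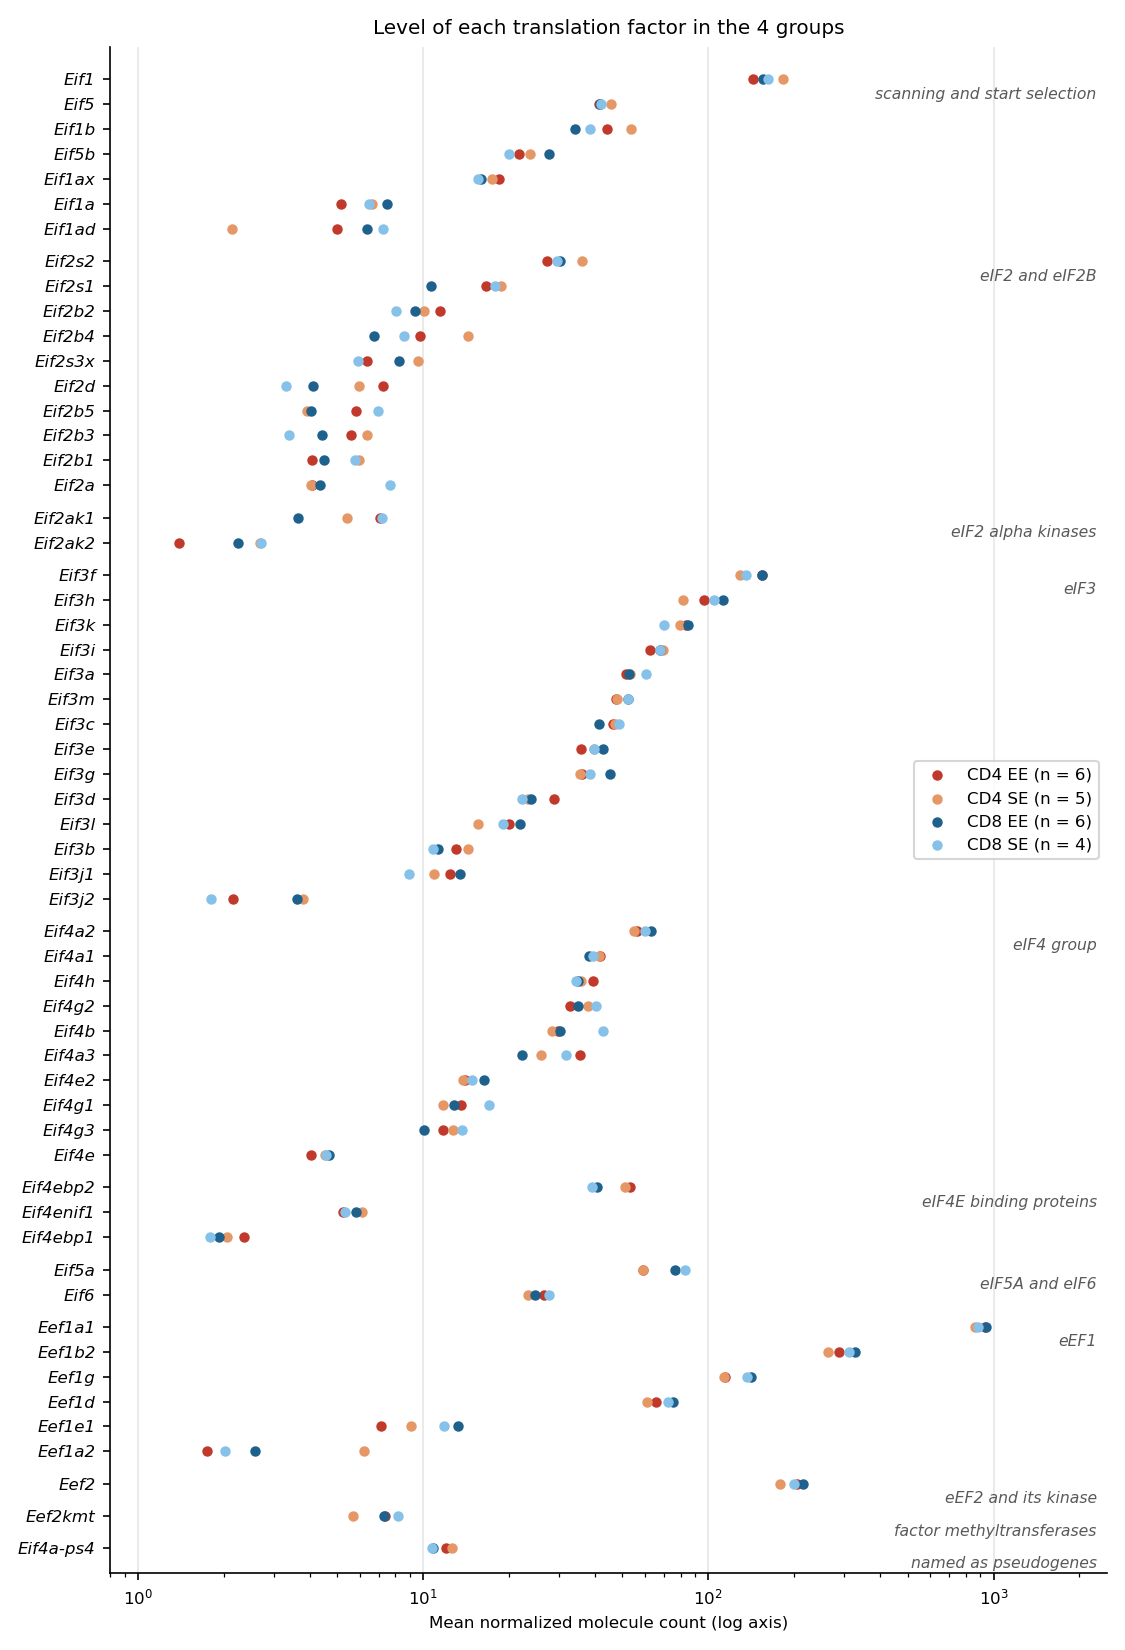
Mean normalized molecule count (log axis) in the 4 groups for the 57 members with a mean above 2, ordered by complex and by level. Eef1a1 stands at the right with a mean of 909 over all samples, the eIF2B subunits and the eIF2 alpha kinases stand at the left, and the 4 groups lie close together for most members with a mean above 10.

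Among the 7 members listed here under scanning and start codon selection, Eif1 led. It encodes the small factor that guards against initiation at wrong codons, and its mean count was 160 over all samples. The group sums were 280 ± 30.5 in CD4 EE, 333 ± 24.5 in CD4 SE, 289 ± 20.4 in CD8 EE and 293 ± 21.5 in CD8 SE. Eif1b, a close paralog of Eif1, stood at 42.5, and Eif5, which triggers GTP hydrolysis by eIF2, at 42.6. Per kilobase of the principal transcript, the level of Eif1 was 121 and that of Eif1b 41.0. Because a molecule is counted once whatever its length, levels per kilobase here are a second description and no check on the order of the counts. The ratio of Eif1b to Eif1 means was 0.299 in CD4+ and 0.227 in CD8+ samples. Of the 2 genes for eIF1A, Eif1ax (mean 16.9) was above Eif1a (6.41) in 20 of 21 samples. Eif1ad, the least abundant of the 7 listed, had a mean of 5.13.

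The 10 listed members of eIF2, eIF2B and related tRNA carriers were low: only Eif2s2 (30.6) and Eif2s1 (15.7), which encode the beta and alpha subunits of eIF2, had a mean above 10. The X-linked gamma subunit gene Eif2s3x had a mean of 7.59. The 5 subunits of eIF2B, the exchange factor of eIF2, lay between Eif2b1 at 4.96 and Eif2b2 at 9.90, and Eif2a, which can carry initiator tRNA in place of eIF2, was lowest at 4.82. Summed counts were 98.1 ± 17.0 in CD4 EE, 115 ± 15.6 in CD4 SE, 86.6 ± 9.82 in CD8 EE and 96.9 ± 14.0 in CD8 SE. The 4 kinases that phosphorylate eIF2 alpha were scarcer still. Eif2ak1 (HRI, the heme-regulated kinase) had the highest mean of them, 5.70, and Eif2ak4 (GCN2, which senses uncharged tRNA) the lowest, 1.41.

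eIF3, the scaffold of the small subunit, had 14 members and the largest sum of the initiation complexes: 690 ± 46.8 in CD4 EE, 650 ± 43.0 in CD4 SE, 728 ± 40.7 in CD8 EE and 681 ± 30.0 in CD8 SE. Its subunits did not stand at 1 level. Eif3f had a mean of 144, Eif3h 99.3, Eif3k 80.4 and Eif3i 66.5, while the core subunit gene Eif3b had 12.4, and Eif3f exceeded Eif3b in 21 of 21 samples. Per kilobase the levels were 104 for Eif3k, 57.4 for Eif3f and 4.22 for Eif3b. Eif3j1 (11.7) was above its single-exon paralog Eif3j2 (2.90), the lowest of the complex, in 21 of 21 samples.

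In the eIF4 group, the helicase genes led. Eif4a2 had a mean of 58.5 and Eif4a1 of 40.2, and Eif4a2 was the higher of the pair in 19 of 21 samples. Per kilobase they stood at 26.5 and 22.7. Eif4e, the cap-binding protein itself, had a mean of only 4.45, below its relative Eif4e2 (14.8) in 20 of 21 samples, and Eif4e3 was lowest at 1.16. Group sums were 281 ± 17.8 in CD4 EE, 269 ± 23.2 in CD4 SE, 268 ± 10.5 in CD8 EE and 299 ± 15.3 in CD8 SE. The CD8 EE sums ran from 257 to 285 and the CD8 SE sums from 286 to 320. These ranges lay side by side without overlap, a difference of sums for which no test was made. The sum includes Eif4a3, described below as no cap factor. Its own CD8 EE counts (17.5 to 27.7) lay below its CD8 SE counts (28.8 to 36.0), and sums without Eif4a3 were not compared.

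The binding proteins that keep eIF4E from the cap complex were carried by Eif4ebp2, with a mean of 46.5 against 2.05 for Eif4ebp1, the usual mTOR target of this family. Eif4ebp2 was above Eif4e in 21 of 21 samples, and per kilobase its level was 8.03 against 0.891 for Eif4e. The sum of the 3 listed binding protein genes was 61.0 ± 11.9 in CD4 EE, 59.4 ± 7.67 in CD4 SE, 48.3 ± 7.68 in CD8 EE and 46.1 ± 6.87 in CD8 SE.

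For eIF5A, the hypusine-bearing factor, Eif5a had a mean of 68.6, while its paralog Eif5a2 had a mean of 0.277 and was seen in few libraries. With Eif6, which keeps ribosomal subunits apart, they summed to 86.2 ± 8.88 in CD4 EE, 82.3 ± 6.41 in CD4 SE, 101 ± 15.5 in CD8 EE and 111 ± 5.76 in CD8 SE. The 6 genes listed here by name under eEF1 had the highest sum of any complex, at 1407 ± 151 in CD4 EE, 1316 ± 107 in CD4 SE, 1501 ± 76.1 in CD8 EE and 1418 ± 39.1 in CD8 SE. In that complex Eef1a1, the tRNA-delivering GTPase, had a mean of 909. The exchange subunit genes followed, with Eef1b2 at 297, Eef1g at 126 and Eef1d at 68.6, and Eef1a2, the form of muscle and neurons, was lowest at 3.10. Per kilobase the levels were 507 for Eef1a1, 153 for Eef1b2, 67.6 for Eef1g and 29.7 for Eef1d. Eef2 had a mean of 201 (65.0 per kilobase), its kinase gene Eef2k 0.741, and Eef2kmt, which encodes a methyltransferase of eEF2, 7.09. Of the 3 pseudogenes, only Eif4a-ps4 (11.6) had a mean above 10, and reads of such copies may come from their parent genes.

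The first comparison asked whether CD4+ and CD8+ T cells of the spleen differ in these factors, over all 21 samples with environment as a term. The samples of the populations also differed in their B cell marker sums, and the part of other cells was not tested. By limma, CD8+ samples had more Eif5a, Eef1g and Eef1b2 mRNA, and CD4+ samples had more Eif1b. These were 4 of the 57 members tested (7.02%), while 374 of 7938 genes were called over the whole table, which is 4.71%. Of the 4, 1 was higher in CD4+ samples (background 2.48% of genes) and 3 were lower (background 2.23%). The median log2 difference, CD4 minus CD8, was -0.03 over the members and -0.01 over all genes tested. With 1 library left out, the count of called members was 2 to 4, and of the 21 such fits Eef1b2 lost its call in 11 and Eif1b in 13. Eif1b also lost it with the mouse as a block (adjusted p = 0.146). For 7 members the mean was too low to be tested.

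Eif5a (ENSMUSG00000078812, chromosome 11, 69916714 to 69921958, minus strand, GRCm38) had no overlapping gene in the GENCODE annotation. In CD4 EE samples its counts had a low of 38.6, a median of 61.3 and a high of 70.4, and in CD4 SE samples they were 60.7, 54.9, 68.6, 40.8 and 69.8. In CD8 EE samples the low, median and high were 64.1, 73.5 and 103, and the CD8 SE samples had 77.1, 80.1, 90.1 and 84.6. The populations overlapped, but 8 of 10 CD8+ samples were above every CD4+ sample. The means were 59.1 ± 10.9 (n = 11) in CD4+ and 79.0 ± 11.6 (n = 10) in CD8+ samples, a log2 difference of -0.43 (SE 0.11, adjusted p = 0.00888), or 1.35-fold higher in CD8+ samples. Within the 9 mice that gave both populations, Eif5a was lower in the CD4+ sample in 9 of 9 (mean log2 difference -0.39, exact sign-flip permutation test p = 0.00391, the smallest that 9 mice can give). Members named between populations were mostly chosen by the fit on samples that include these pairs. Their unadjusted within-mouse p therefore restates that choice and is no independent support. The call held in each of the 21 fits that left out 1 library, with adjusted p from 0.00502 to 0.0329.

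Eef1g (ENSMUSG00000071644, chromosome 19, 8967041 to 8978479, plus strand) encodes the gamma subunit that anchors the eEF1B exchange complex, and no other gene overlapped it. CD4 EE samples had a low of 97.6, a median of 109 and a high of 138, and CD4 SE samples had 137, 102, 119, 117 and 94.6. CD8 EE samples had 127, 140 and 158 as low, median and high, and CD8 SE samples 140, 140, 140 and 125. Here 6 of 10 CD8+ samples were above every CD4+ sample. The means were 114 ± 15.2 in CD4+ and 139 ± 9.43 in CD8+ samples, a log2 difference of -0.29 (SE 0.083, adjusted p = 0.0254). It was lower in the CD4+ sample in 9 of 9 mice (-0.30, exact permutation p = 0.00391). The call was lost without CD4 EE replicate 2 (adjusted p = 0.0592), CD4 EE replicate 5 (0.0507) or CD8 EE replicate 5 (0.0611), and held in the other 18 fits.

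Eef1b2 (ENSMUSG00000025967, chromosome 1, 63176825 to 63180486, plus strand) encodes the subunit that recharges eEF1A with GTP. It overlaps Ndufs1 on the other strand and the small nucleolar RNA gene Snora41 on its own, and whether molecules were assigned by strand is not given in the sources used here, so its counts are less certain. CD4 EE samples had a low of 239, a median of 282 and a high of 345, and CD4 SE samples had 288, 229, 272, 271 and 257. CD8 EE samples had 289, 335 and 351 as low, median and high, and CD8 SE samples 282, 308, 311 and 344. The ranges overlapped widely, and 1 CD8+ sample was above every CD4+ sample. The means were 276 ± 33.5 in CD4+ and 321 ± 24.4 in CD8+ samples, a log2 difference of -0.22 (SE 0.065, adjusted p = 0.0358), and 7 of 9 mice showed this direction (-0.22, exact permutation p = 0.0156). The call held in 10 of the 21 fits without 1 library. It was lost, with adjusted p of 0.0521 to 0.0906, without CD4 EE replicate 2, 4 or 6, CD4 SE replicate 3, CD8 EE replicate 1, 3, 4 or 5, or CD8 SE replicate 2, 3 or 6.

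Eif1b (ENSMUSG00000006941, chromosome 9, 120492232 to 120495330, plus strand) overlaps D830035M03Rik on the other strand, so its counts are likewise less certain, and it was the member called higher in CD4+ samples. CD4 EE samples had a low of 35.7, a median of 42.5 and a high of 59.9, and CD4 SE samples had 42.2, 52.2, 45.7, 62.7 and 65.3. CD8 EE samples had 31.9, 34.0 and 37.2, and CD8 SE samples 37.7, 31.7, 51.2 and 33.6. The lowest CD4+ sample was above 6 of the 10 CD8+ samples. The means were 48.4 ± 10.1 in CD4+ and 35.9 ± 5.79 in CD8+ samples, a log2 difference of 0.40 (SE 0.12, adjusted p = 0.0440), and 8 of 9 mice had more in the CD4+ sample (0.35, exact permutation p = 0.0117). With the mouse as a block the adjusted p was 0.146 and the call was lost. It was also lost without CD4 EE replicate 1, 3 or 6, CD4 SE replicate 3, 5 or 6, CD8 EE replicate 1, 2, 3 or 6, or CD8 SE replicate 1, 2 or 6 (adjusted p = 0.0540 to 0.111) and held in 8 of the 21 fits. Its paralog Eif1 had a log2 difference of 0.01 (95% confidence interval -0.14 to 0.17, adjusted p = 0.963).

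**Figure D2:**
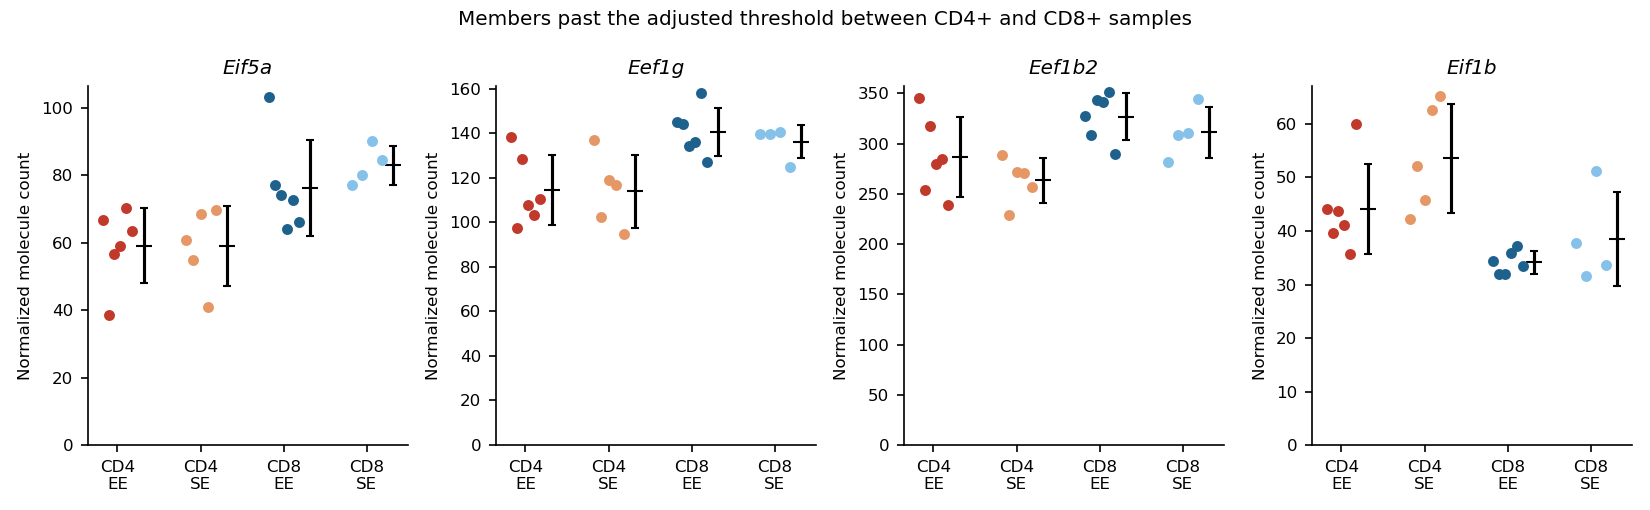
Normalized molecule counts per sample of Eif5a, Eef1g, Eef1b2 and Eif1b, with the mean and SD (bars) of each of the 4 groups (CD4 EE n = 6, CD4 SE n = 5, CD8 EE n = 6, CD8 SE n = 4). CD8+ samples lie mostly above CD4+ samples for the first 3 genes and below them for Eif1b, with overlap in each panel.

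The B cell marker sum differed between the populations (217 to 499 in all CD4+ libraries but 1). CD4 SE replicate 1, whose sum of 41.2 was at the level of the CD8+ libraries, had 60.7 for Eif5a, below all CD8+ samples (64.1 to 103), and 42.2 for Eif1b, inside the CD8+ range of 31.7 to 51.2. Its counts of 137 for Eef1g and 288 for Eef1b2 were inside the CD8+ ranges of 125 to 158 and 282 to 351. The part of other cells in the differences was not tested. Without the pair of CD8+ libraries rich in erythroid markers, an alternative chosen after the marker sums were seen, these 4 members were called and Eif2d was added (log2 difference 1.12, adjusted p = 0.0336), while 326 genes were called over the whole table.

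Within 1 environment, with fewer samples, none of the 4 passed the threshold. For Eif5a the log2 difference was -0.37 (adjusted p = 0.199) in EE and -0.51 (0.188) in SE samples, and for Eef1g -0.30 (0.136) and -0.27 (0.586). For Eef1b2 it was -0.20 (adjusted p = 0.277) in EE and -0.24 (0.423) in SE samples, and for Eif1b 0.34 (0.331) and 0.47 (0.404). The direction of each of these 4 was shared by the environments. Eif4a3 was the 1 member called in EE samples (0.66, adjusted p = 0.0383), where 227 genes were called over the table. Its difference in SE samples was -0.30, where limma called 0 members and 105 genes. At an unadjusted p under 0.05 there were 8 members and 734 genes in SE samples.

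**Figure D3:**
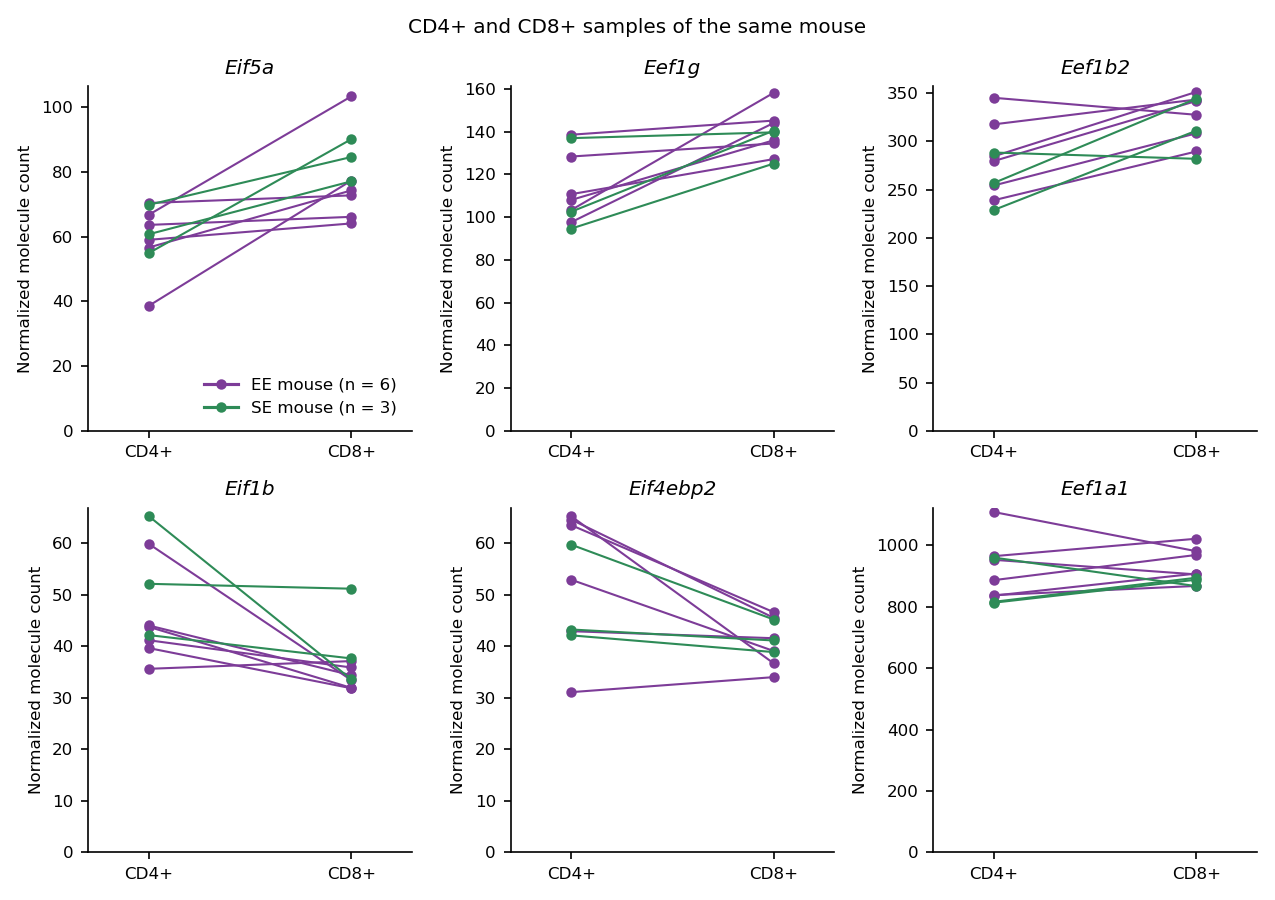
Normalized molecule counts in the CD4+ and CD8+ samples of the same mouse (lines) for Eif5a, Eef1g, Eef1b2, Eif1b, Eif4ebp2 and Eef1a1, in 6 EE and 3 SE mice. The lines of Eif5a and Eef1g rise toward CD8+ in 9 of 9 mice, whereas those of Eef1a1 run both ways.

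Other members were near the threshold without passing it. Eif4ebp2 stood at 52.4 ± 11.2 in CD4+ and 39.9 ± 5.16 in CD8+ samples (log2 difference 0.36, SE 0.13, adjusted p = 0.0853). It was higher in the CD4+ sample in 8 of 9 mice (exact permutation p = 0.0234) and was called without CD4 EE replicate 5 (adjusted p = 0.0175). Eif3h stood at 89.8 ± 13.3 and 110 ± 17.3 (log2 difference -0.27, adjusted p = 0.0929) and was called without CD8 EE replicate 6 (0.0405) or CD8 SE replicate 6 (0.0302). Eif1ad had a log2 difference of -0.90 (adjusted p = 0.0923) on low counts, 3.71 ± 2.75 against 6.69 ± 1.44, and was called without CD4 EE replicate 1 (0.0414). In all, 11 members (19.3%) had an unadjusted p under 0.05, against 15.4% of all genes. Of these, 4 were higher in CD4+ samples (background 7.68%) and 7 were lower (background 7.73%).

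Eef1a1 and Eef2, which are also among the most abundant members, were not called. Eef1a1 stood at 900 ± 89.5 in CD4+ and 919 ± 52.9 in CD8+ samples, a log2 difference of -0.03 with a 95% confidence interval of -0.12 to 0.06, and Eef2 at 193 ± 44.0 and 209 ± 14.5 (-0.16, interval -0.36 to 0.05). Leaving out CD4 SE replicate 6, whose Eef2 count was 71.0, gave -0.03 for Eef2. No member had populations that did not overlap, while 69 of 7938 genes did (0.869%). Eef1d, the other subunit gene of the exchange complex, had a log2 difference of -0.23 (adjusted p = 0.307) in the direction of Eef1g and Eef1b2.

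Starts listed by RefSeq (GRCm38.p6) were found for 49 of the 64 members. They are shown for the called members that have an entry, with 250 bases before and 20 after the start. Eef1a1, the most abundant GTPase gene, and Eef2 were not called and are shown with 100 bases before and 20 after. Capitals mark the ETS-type motif CCGGAAG or, in Eef2, the TATA motif TATAAA, each searched on both strands. The windows are chr1:63176581-63176850 on the plus strand for Eef1b2, chr11:69921367-69921636 on the minus strand for Eif5a, chr9:120492356-120492625 on the plus strand for Eif1b, chr9:78481705-78481824 on the minus strand for Eef1a1 and chr10:81176531-81176650 on the plus strand for Eef2.
Eef1b2: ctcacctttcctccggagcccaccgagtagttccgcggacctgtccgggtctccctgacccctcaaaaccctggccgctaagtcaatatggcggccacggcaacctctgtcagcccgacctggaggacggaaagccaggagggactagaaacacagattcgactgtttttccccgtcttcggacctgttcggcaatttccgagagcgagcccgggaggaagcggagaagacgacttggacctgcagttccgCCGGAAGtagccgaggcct
Eif5a: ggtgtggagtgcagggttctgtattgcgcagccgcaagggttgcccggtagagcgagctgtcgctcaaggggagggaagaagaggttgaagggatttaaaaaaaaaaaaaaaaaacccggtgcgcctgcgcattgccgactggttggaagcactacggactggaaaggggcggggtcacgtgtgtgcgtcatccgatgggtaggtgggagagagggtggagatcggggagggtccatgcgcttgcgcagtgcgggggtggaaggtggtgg
Eif1b: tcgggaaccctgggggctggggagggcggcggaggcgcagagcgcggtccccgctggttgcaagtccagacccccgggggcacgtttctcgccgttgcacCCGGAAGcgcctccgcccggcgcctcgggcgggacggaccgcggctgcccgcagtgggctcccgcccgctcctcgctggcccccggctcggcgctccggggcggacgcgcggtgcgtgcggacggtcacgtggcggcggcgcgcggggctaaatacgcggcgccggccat
Eef1a1: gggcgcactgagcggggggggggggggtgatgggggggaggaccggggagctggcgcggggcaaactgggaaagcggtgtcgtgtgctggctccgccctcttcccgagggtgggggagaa
Eef2: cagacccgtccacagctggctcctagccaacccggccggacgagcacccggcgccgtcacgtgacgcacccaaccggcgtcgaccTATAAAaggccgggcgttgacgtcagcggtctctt

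In these lines the ETS-type motif lies just after the start of Eef1b2 and upstream of the RefSeq start of Eif1b, and TATAAA lies close to the start of Eef2. The RefSeq start of Eif1b lies inside the GENCODE gene given above, and 0 GENCODE transcripts begin there, so the motif of Eif1b is within that gene. At the RefSeq start of Eef1b2, too, 0 GENCODE transcripts begin. Neither motif is in the Eif5a window printed, which is 1 of 6 starts listed for that gene. CCGGAAG is in the window of another Eif5a start, and Eif5a is among the members counted next. In windows of 250 bases before to 50 after a start, CCGGAAG was found for 17 of the 49 members (34.7%), for 1858 of 8346 genes of the table with a listed start (22.3%), for 518 of the 1950 of these with a mean above 10 (26.6%) and for 2683 of 27025 genes of the annotation (9.93%). TATAAA was found for 4 members (8.16%), namely Eef2, Eif2s1, Eif3b and Eif3f, for 8.23% of the genes of the table and for 9.18% of those with a mean above 10. A match of letters is a description and not a bound site.

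The second comparison asked whether housing changed the factors in CD4+ T cells. No member passed the adjusted threshold by limma (lowest adjusted p = 0.629 over 56 members tested), nor by edgeR or DESeq2 (0 and 0), and 1 of 7939 genes did, which is 0.0126%. At an unadjusted p under 0.05 there were 5 members (8.93%) by limma and 4 each by edgeR and DESeq2, against 5.82% of all genes by limma and 427 and 309 of the same 7939 genes by edgeR and DESeq2. Of the 5, 3 were higher in EE samples (background 2.92%) and 2 were lower (background 2.9%). The median log2 difference, EE minus SE, was 0.01 over the members and 0.00 over all genes.

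Eif1 (ENSMUSG00000035530, chromosome 11, 100319885 to 100322096) was lower in CD4 EE samples before adjustment. Its counts had a low of 128, a median of 145 and a high of 160 in EE samples, and were 182, 174, 177, 173 and 211 in SE samples. The groups did not overlap, which held for 1 member and for 36 of all genes tested (0.453%). The means were 144 ± 12.5 (n = 6) and 183 ± 15.6 (n = 5), a log2 difference of -0.35 (SE 0.12, adjusted p = 0.629, exact permutation p = 0.00433, the smallest these groups can give). In CD8+ samples the difference of Eif1 was -0.06 (exact permutation p = 0.543). Members named between EE and SE samples were mostly those with the smallest limma p in the same comparison, so their unadjusted permutation p restates that choice and is no independent support.

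Eif4a3, which encodes the helicase of the exon junction complex rather than a cap factor, had counts from 26.8 to 42.8 with a median of 37.2 in CD4 EE samples and of 34.0, 28.4, 23.8, 21.8 and 21.4 in CD4 SE samples. The highest SE sample exceeded 2 of the 6 EE samples, and the log2 difference was 0.45 (SE 0.20, adjusted p = 0.829, exact permutation p = 0.026). Eif3f stood at 154 ± 17.7 and 129 ± 16.1 (0.25, adjusted p = 0.835), and the low-count Eef1a2 at 1.74 ± 1.52 and 6.22 ± 3.42 (-1.47, adjusted p = 0.681, exact permutation p = 0.00866).

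CD4 SE replicate 6 stood apart for several members. Its Eef2 count was 71.0, while the other CD4+ samples had 181 to 232, and its Eif3l count was 2.25 against 10.4 to 28.3. The log2 difference of Eef2 was 0.30 (exact permutation p = 0.442) with this library and 7.97e-05 without it, and that of Eif3l 0.65 and 0.14. The same library had the highest Eif1 count of the series, 211. The most abundant member, Eef1a1, stood at 932 ± 103 in EE and 863 ± 59.5 in SE samples (0.11, exact permutation p = 0.203). For the 6 members with a mean above 100, the 95% confidence intervals reached at most a 1.54-fold change.

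In CD8+ T cells the same question gave 0 of 56 members past the adjusted threshold by limma (lowest adjusted p = 0.898) and 0 by edgeR and by DESeq2. No gene of 7840 passed it, so the background was 0%. At an unadjusted p under 0.05 there were 4 members (7.14%) by limma, 5 by edgeR and 3 by DESeq2, against 5.27% of genes by limma and 386 and 236 of the same 7840 genes by edgeR and DESeq2. Of the 4, 1 was higher in EE samples (background 3.11%) and 3 were lower (background 2.16%). The median log2 difference was 0.03 over the members and -0.01 over all genes.

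The groups did not overlap for 2 members, Eif4a3 and Eif3k, against 83 genes (1.06%). Eif4a3 (ENSMUSG00000025580, chromosome 11, 119288363 to 119300089) had counts from 17.5 to 27.7 with a median of 21.5 in CD8 EE samples, and 36.0, 28.9, 33.6 and 28.8 in CD8 SE samples. All EE samples were thus below all SE samples (log2 difference -0.51, SE 0.21, adjusted p = 0.920, exact permutation p = 0.00952, the smallest these groups can give). Eif3k (ENSMUSG00000053565, chromosome 7, 28971372 to 28981864), a peripheral eIF3 subunit, had 80.6 to 90.8 with a median of 82.7 in EE samples and 76.2, 68.9, 70.7 and 63.4 in SE samples. All EE samples were above all SE samples (0.28, SE 0.13, adjusted p = 0.923, exact permutation p = 0.00952).

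Eif4b, the cofactor of the eIF4A helicase, had a low of 23.3, a median of 31.0 and a high of 34.9 in CD8 EE samples and 38.5, 52.1, 45.0 and 34.6 in CD8 SE samples. The groups touched at 1 sample (log2 difference -0.48, SE 0.19, adjusted p = 0.898, exact permutation p = 0.019). Eif2s1 stood at 10.7 ± 3.95 and 17.9 ± 5.94 (-0.69, adjusted p = 0.923, exact permutation p = 0.0571). Eef1a1 stood at 942 ± 57.5 and 884 ± 11.7 (0.09, exact permutation p = 0.0762) and Eef2 at 215 ± 14.3 and 200 ± 10.4 (0.10, exact permutation p = 0.105). For the 7 members with a mean above 100, the 95% confidence intervals reached at most a 1.32-fold change. With the pair of libraries rich in erythroid markers left out, limma called 0 members as well.

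**Figure D4:**
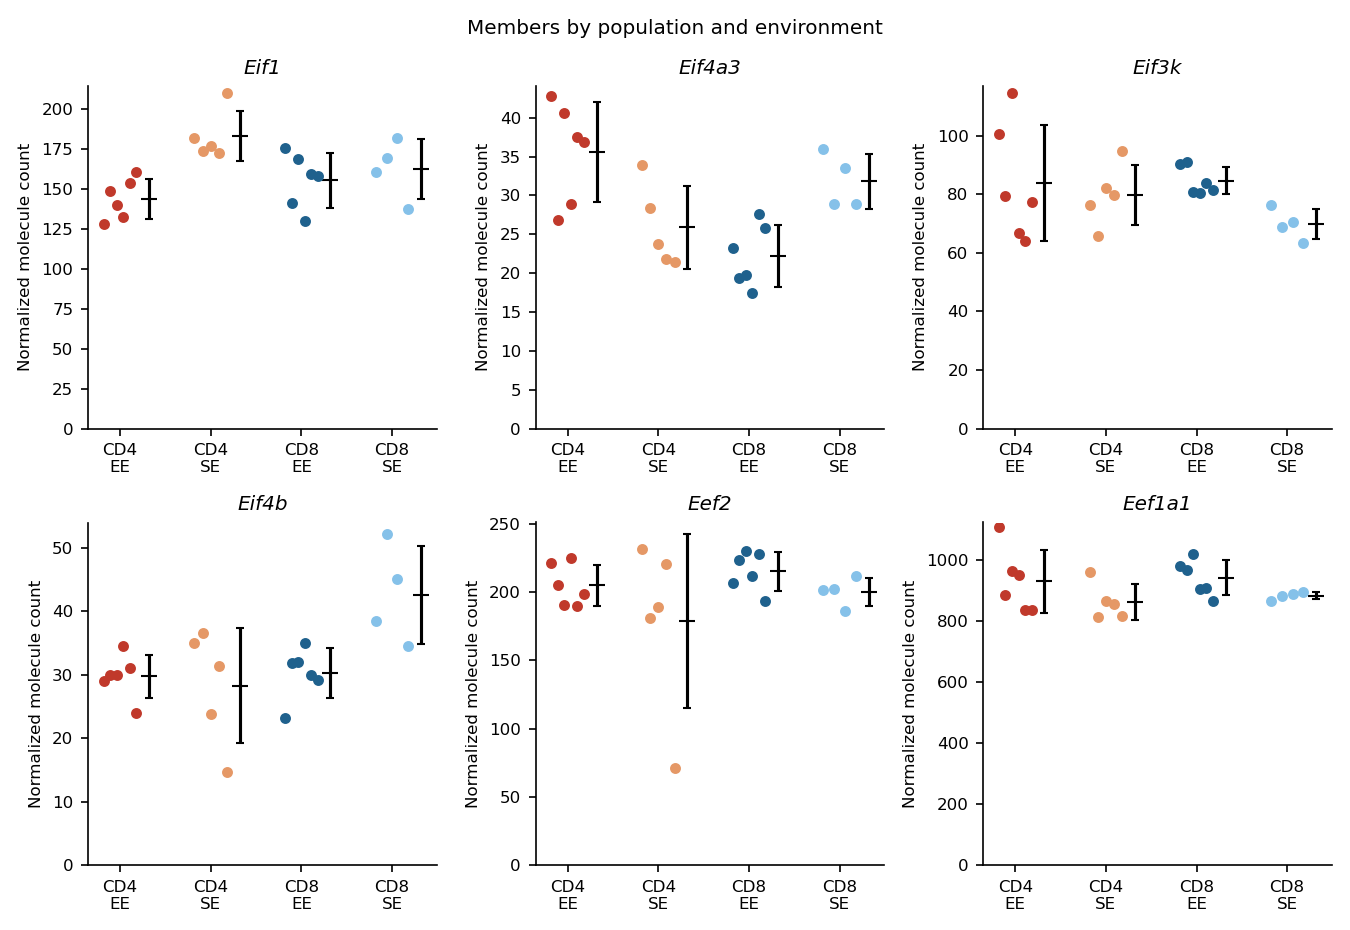
Normalized molecule counts per sample of Eif1, Eif4a3, Eif3k, Eif4b, Eef2 and Eef1a1 in the 4 groups, with mean and SD (bars). The CD4 EE and SE samples of Eif1 and the CD8 EE and SE samples of Eif4a3 and Eif3k do not overlap, and the low Eef2 point among CD4 SE samples is replicate 6, at 71.0.

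The difference between the environment effects of the populations was tested by their interaction. No member and no gene of 7938 passed the adjusted threshold by limma (background 0%), and edgeR and DESeq2 gave 0 members as well. By limma, 6 members (10.5%) and 4.95% of genes had an unadjusted p under 0.05, and by edgeR and DESeq2 2 members each, with 365 and 299 of the 7938 genes. Of the 6, 4 had the larger EE minus SE difference in CD4+ samples (background 2.39%) and 2 in CD8+ samples (background 2.56%). Eif4a3 had the smallest p of the members: its EE minus SE difference was 0.45 in CD4+ and -0.51 in CD8+ samples, and these differed by 0.96 on the log2 scale (SE 0.29, limma adjusted p = 0.924). Leaving out 1 library at a time gave 0.90 to 1.06 for this difference. Eif4b had differences of 0.13 in CD4+ and -0.48 in CD8+ samples, which differed by 0.61 (adjusted p = 0.994), and Eif1 had -0.29 (adjusted p = 0.994).

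**Figure D5:**
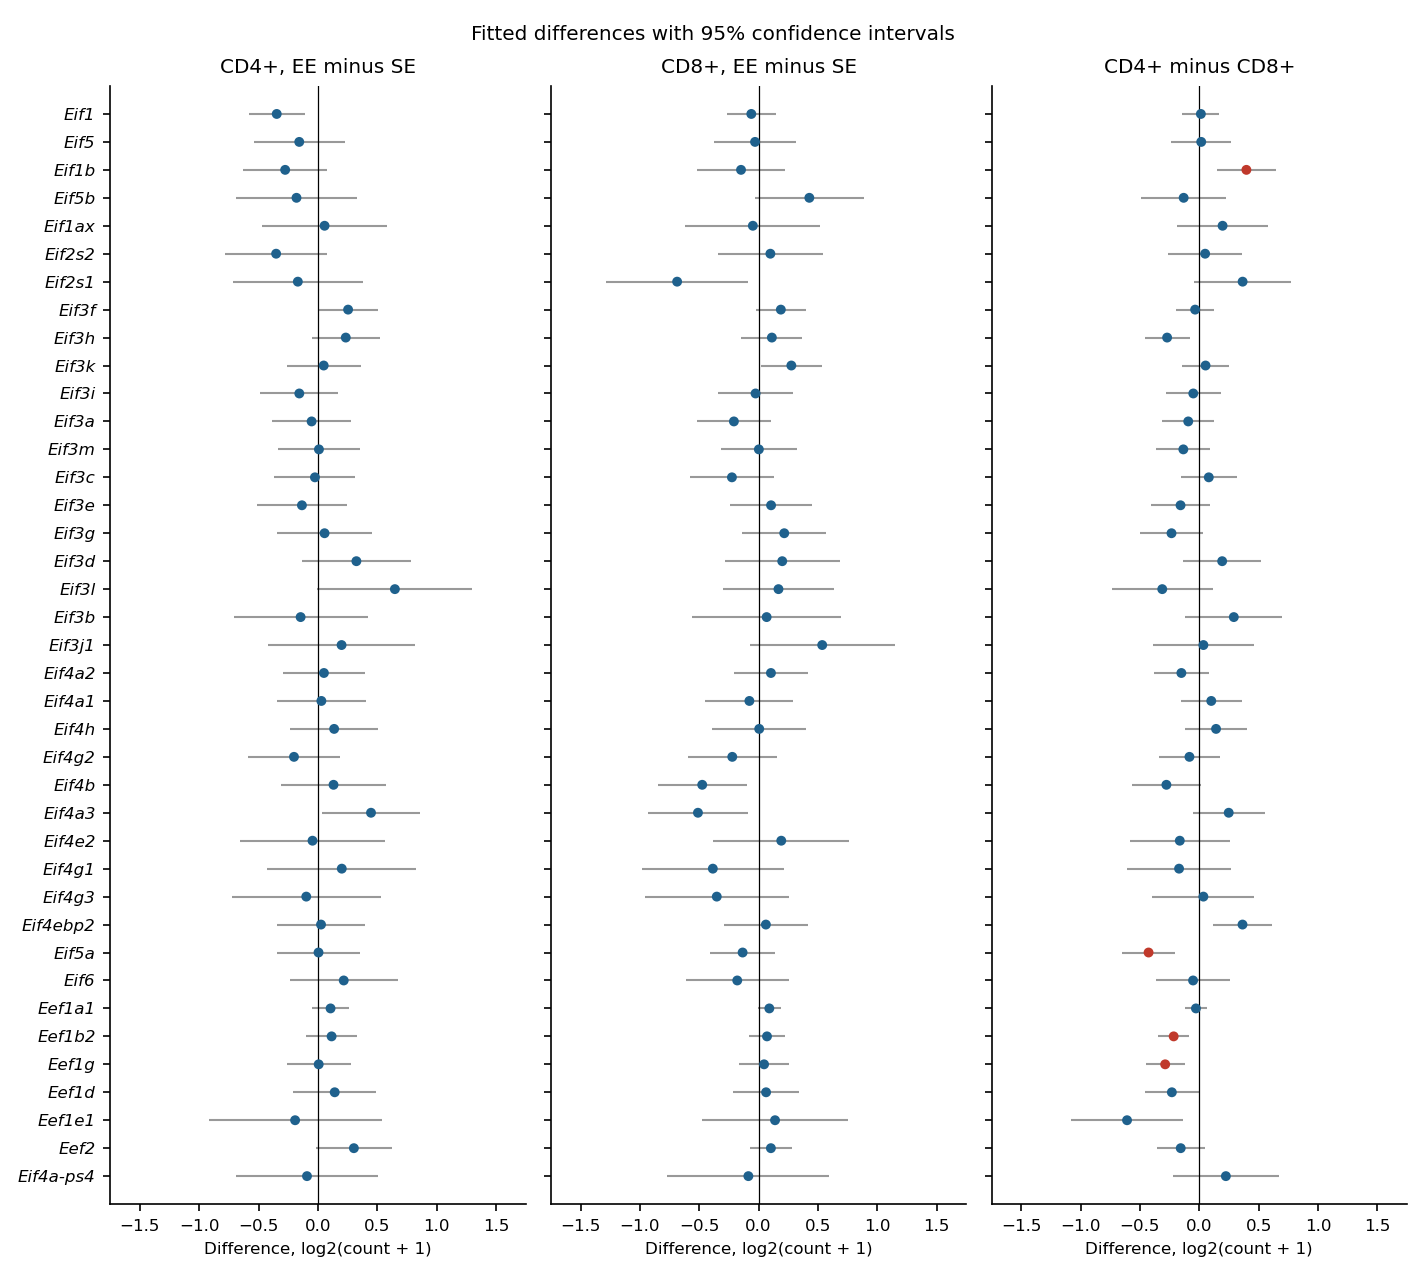
Fitted log2 differences with 95% confidence intervals for the members with a mean above 10: CD4 minus CD8, and EE minus SE in CD4+ and in CD8+ samples. Filled red points mark the 4 members with an adjusted p under 0.05, which are all in the comparison of populations.

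Beyond their means, the members varied between samples about as other genes did. The variance between samples divided by that expected from counting alone had a median of 1.82 over the 39 members with a mean above 10 and of 1.68 over the 2727 genes above that level. It was lowest for Eif3e (0.788) and highest for Eef2 (5.67), the latter with the low library described above, and for Eef1a1 (5.61). Among members with a mean above 10, the median half-width of the 95% interval was 0.26 on the log2 scale between populations, 0.38 between environments in CD4+ and 0.37 in CD8+ samples, and it was 0.89 in CD4+ and 0.88 in CD8+ samples for members below that level.

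Other genes of translation and its control were counted in 7 further lists: termination and recycling, poly(A) binding and eIF4 partners, mTOR and S6 kinase, the integrated stress response, mitochondrial translation factors, aminoacyl-tRNA synthetases and the enzymes of eIF5A hypusination. They hold 71 genes, of which 68 were in the table. None passed the adjusted limma threshold in any comparison. Between environments, 5 of 62 tested in CD4+ and 4 of 63 in CD8+ samples had an unadjusted p under 0.05 (5.82% and 5.27% of all genes), and between populations 3 of 62 did (15.4% of all genes). The median log2 differences were -0.00, 0.04 and 0.01. Mknk2, a kinase of eIF4E, had the smallest p in CD8+ samples (0.87, adjusted p = 0.680), and Tsc1, an inhibitor of mTOR, had a difference of -1.15 in CD4+ samples (adjusted p = 0.741). Dhps, which starts the hypusination of eIF5A, had a difference of -0.14 between populations (adjusted p = 0.797).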

How the data were processed

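From the study's methods and the submitters' processing notes, reads were trimmed with cutadapt, aligned to mm10 with STAR 2.4.0a, and unique molecules were counted per gene on an Ensembl model of GRCm38. The authors removed low genes and divided by DESeq2 size factors, and the deposited signal is the result. All values (100%) came out as whole molecules within 0.001 when multiplied by a factor per library (0.794 to 1.265). On these, edgeR called 384 and DESeq2 352 genes between populations.

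Groups came from the labels. Genes with a mean above 2 in the fit were tested on log2(count + 1) by limma 3.58.1 with trend and Benjamini-Hochberg adjustment over all genes, at 0.05, and a fold is on that scale, which understates changes of low genes. Single members were tested by exact two-sided permutation (scipy 1.17.1). R 4.3.3, edgeR 4.0.16 and DESeq2 1.42.0 were used. Fits were tested on simulated data. Where nothing says that sorts were repeated, p-values cover the spread between these samples, 1 per mouse and population. The main fits between populations and of the interaction held no mouse term, although 9 mice gave both populations.

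The labels give CD4+ and CD8+ samples with 1 environment and animal number as the same mouse (9 pairs). Their deviations from group means over 2727 genes correlated by -0.06 to 0.09. EE and SE samples that share a number are different mice.

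Members, complexes, marker and pathway lists were chosen with earlier results of these data known. Named were the members past the adjusted threshold, otherwise the 3 higher and 3 lower with the smallest p and a mean above 10, the highest and lowest of each complex, and paralog pairs. Members named outside this rule, such as Eif4ebp2 or Eif3h between populations, were chosen after their values were seen. Alternatives covered the pseudocount, the filter, the scaling, the tool, the block, single environments and each library left out. Annotation was GENCODE M21, and 504 of 12994 names did not match it. Count precision covers counting error only.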

Additional observations from a re-analysis of the deposited data

Results flagged for a closer look

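In groups of 4 to 6 samples, 1 sample lay far from the others for 15 of the 152 sets of values examined (Dixon's test at 95%). A set is 1 member in 1 group, and only the named members were examined, many of them chosen for their differences. Chance flags about 1 in 20 groups of normally distributed values, a rate that low counts need not follow: both Eif5a2 sets rest on a single sample with 2 molecules while the others are at 0, which is far from the others whatever its value. No explanation was weighed.

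CD4 SE replicate 6, which also had the low Eef2 count, was high for Eif1 (211, the others 173 to 182) and for Eif1a (15.8, the others 2.74 to 6.18). CD8 EE replicate 1 was high for 4 members: Eif5a (103, the others 64.1 to 77.3), Eef1e1 (25.1, the others 8.59 to 12.6), Eif2ak1 (11.2, the others 0.966 to 3.76) and Eif4e3 (2.79, the others 0 to 0.971). CD4 EE replicate 6 was high for Eif1b (59.9, the others 35.7 to 44.1) and Eif4a1 (53.5, the others 37.4 to 42.9).

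Eef1g was low in CD8 SE replicate 6 (125, the others 140). CD4 EE replicate 4 was high for Eef2kmt (12.3, the others 5.36 to 7.38) and for Eif5a2 (2.23, the others 0), CD8 EE replicate 4 for Eif1a (12.6, the others 5.53 to 7.73), CD4 EE replicate 1 for Eif1ad (10.1, the others 2.23 to 4.61), CD8 SE replicate 3 for Eif2b4 (17.7, the others 4.28 to 6.52) and CD8 SE replicate 2 for Eif5a2 (1.86, the others 0).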

How the results depend on the processing

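Of 972 recomputed differences of named members under the alternatives, 926 kept their direction and side of the threshold, 37 lost a call, 8 gained one and 1 changed sign: Eif4a3 between populations was -0.30 with SE samples only. Between populations, members with an adjusted p under 0.05 numbered 4 with another pseudocount, a mean above 10, equal totals, edgeR or DESeq2, 3 with no filter (Eif1b was then at 0.0630) or with the mouse as a replicate block, 1 (Eif4a3) with EE samples only, 0 with SE samples only, and 2 to 4 when 1 library was left out. The counts over all genes were 235 with a mean above 10, 227 with EE samples only, 105 with SE samples only and 321 to 393 with 1 library left out. Between environments, no alternative gave a member with an adjusted p under 0.05, and with equal totals the exact permutation tests of Eif3f in CD4+ and Eif2s1 in CD8+ samples passed 0.05. Over all genes in CD4+ samples the count of 1 became 0 with a pseudocount of 0.5, 3 with no filter, 0 with a mean above 10, 2 by edgeR, 0 with a replicate block on the shared animal number and 0 to 3 with 1 library left out. In CD8+ samples the count of 0 became 3 with no filter, 2 with that block and 0 to 3 with 1 library left out. Same-numbered EE and SE samples are different mice, and 0 of 9 such pairs correlated above 0.1. The mouse block changed no other member call. Equal totals moved the median of all genes by 0.02 (log2). The causes were not tested. Fewer samples in single environments and counts under 10 limit what could be seen.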
